A study of Xenopus laevis with 16 samples.

Results

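Animal cap explants injected with GATA4-GR together with Dkk-1 were compared with uninjected control explants over the first hours after excision. The libraries were chosen by treatment and time label alone, as the 3 GATA4-GR+Dkk-1 libraries and the 3 control libraries at 2.5, 5 and 7.5 h, which are 6 of the 16 libraries of the study. All came from Xenopus laevis animal caps, the ectoderm of the blastula roof, excised, cultured and collected as pooled explants. The GATA4-GR+Dkk-1 explants carried injected mRNA for both proteins, and dexamethasone (DEX) was added at excision to switch on GATA4-GR. The control explants carried no injected mRNA, and the sources used here do not say whether they also received DEX. Control differed from GATA4-GR+Dkk-1 by the injection as well as by the 2 proteins, so these cannot be told apart. Each treatment had 1 library at each hour, and the question asked was which transcripts changed when both factors were present. Explants injected with GATA4-GR mRNA alone and given DEX, and libraries at 24 h, appear only where named. So do explants injected with Nodal5 mRNA, which the study used for heart-inducing Nodal signalling. The sources used here do not say whether the Nodal5 explants received DEX.

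GATA4 is a zinc finger transcription factor of the endoderm and of the heart-forming mesoderm. Joined to the part of the glucocorticoid receptor (GR) that binds hormone, it is held inactive in the cytoplasm until DEX lets it enter the nucleus. Dkk-1 is a secreted antagonist of canonical Wnt signalling that binds the LRP co-receptors, and Wnt inhibition is known to favour heart formation in the early embryo. Animal cap cells are pluripotent and form epidermis when left alone, which makes them a common test tissue for factors that redirect cell fate.

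Transcripts were measured per gene model, the predicted gene to which reads are assigned, and the files give each model by an identifier without a gene name. None of the 54142 identifiers matched the name table at hand (0 matches), so gata4, dkk1, epidermal, endodermal or cardiac markers could not be looked up, and neither the label of a library nor its tissue was checked against its own genes. Total counts were 14298419, 23310242 and 18193989 in control and 16981422, 21806144 and 13593005 with GATA4-GR+Dkk-1 at 2.5, 5 and 7.5 h. Between 35060 and 38700 models had at least 1 count, and the 10 highest models took 3.53 to 4.32% of the counts in control and 5.74 to 6.94% with GATA4-GR+Dkk-1. At 5 h every treatment has a library whose name marks it as sequenced again, which coincides with an hour and not with a treatment. X. laevis is allotetraploid, and reads shared by near-identical gene copies were divided between models by the authors' counting. Of the models tested, 81.1% had a count that was not whole in at least 1 of the 6 libraries, against 82.6% of those that rose and 80.1% of those that fell.

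Many models differed between GATA4-GR+Dkk-1 and control explants over the first 7.5 h, and how many depended on the method. Of 23858 models with enough counts to test, 4526 passed an adjusted p of 0.1 in edgeR's quasi-likelihood test with the hour as a block (19% of all tested). DESeq2 called 2566 on the same libraries, and on simulated counts a larger share of the calls was false than the threshold states. Among the 4526 2003 rose (8.4% of all tested) and 2523 fell (10.6% of all tested). The error in this test is the spread of the effect between the 3 hours, because no hour held a repeat library. The median log2 fold change was 0.86 for the models that rose and -0.86 for those that fell, with quartiles of 0.33 and 2.03 and of -0.40 and -1.51. Falls outnumbered rises at 2-fold or more, and rises outnumbered falls from 4-fold up. A change of 2-fold or more was fitted for 916 models that rose (45.7%) and 1122 that fell (44.5%), one of 4-fold or more (log2 of 2) for 510 (25.5%) and 361 (14.3%), and a log2 change of 3 or more for 316 (15.8%) and 85 (3.37%). A log2 rise of at least 5 was fitted for 116 models, whereas no model fell that far and the deepest called fall was -4.78.

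**Figure D1:**
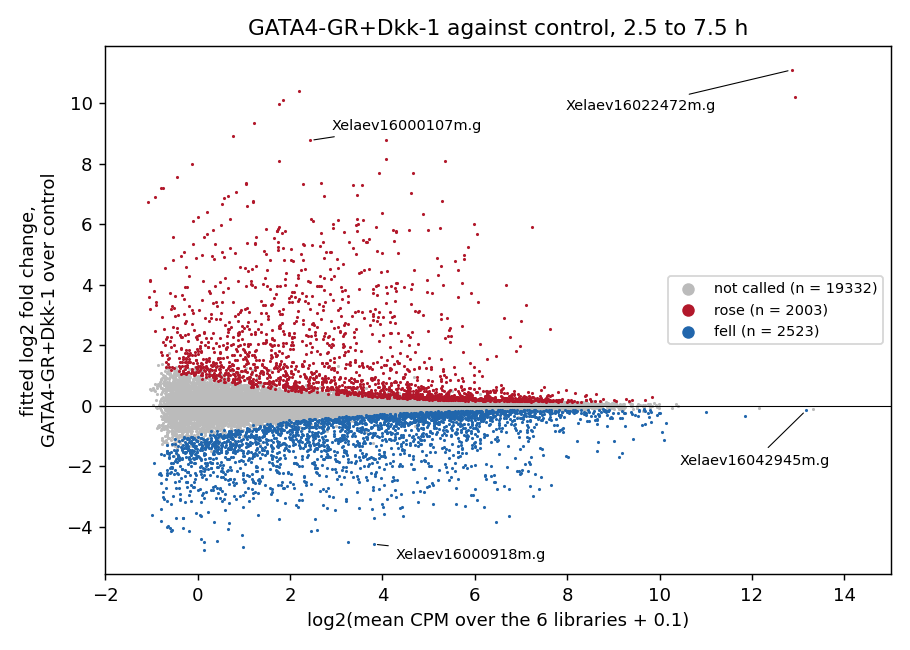
Fitted log2 fold change of GATA4-GR+Dkk-1 over control (vertical axis) against the log2 of the mean CPM (counts scaled to a common library size) over the 6 libraries (horizontal axis), 1 point per gene model tested, with the 2003 models that rose, the 2523 that fell and the 4 models named in the text marked. The rises reach a log2 fold change of 11.1 and the called falls -4.78, and a pair of models that rose stands apart at the far right.

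The direction held from hour to hour in nearly all of these models. Of the models that rose, 1978 (98.8%) were higher than control at all 3 hours, where 25.4% of all tested models were. Of the models that fell, 2493 (98.8%) were lower at all 3 hours, against 22.5% of all tested. The stricter reading, that all 3 GATA4-GR+Dkk-1 libraries lay above all 3 control libraries whatever the hour, held for 1207 models that rose (60.3%) against 8.29% of all tested. All 3 lay below control in 1763 models that fell (69.9%) against 10.2% of all tested. These shares describe the models called and are no test of them, since the test already uses the agreement between hours. The count of calls depended on that use of the hours, with 1636 called when the hour was left out of the model. It was 2170 without the 5 h pair of libraries, and 2089 of these were among the 4526.

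The called models were also sorted by their level in control explants. Levels are given in CPM, the counts of a model after scaling to a common library size, which do not allow for transcript length and so are not compared between models as amounts of RNA. Among 2536 models with at least 100 CPM in control, 154 rose (6.07%) with a median log2 of 0.19 and 339 fell (13.4%) with a median of -0.32. The class from 10 to 100 CPM held 10338 models, of which 676 rose (6.54%, median 0.31) and 1153 fell (11.2%, median -0.52). In the class from 1 to 10 CPM, with 8305 models, 638 rose (7.68%, median 1.07) and 974 fell (11.7%, median -1.30). These medians cover called models only, and small changes can be called only where counts are high, so they do not compare the size of changes between classes. Of 2613 models between 0.1 and 1 CPM in control, 469 rose with a median log2 of 2.28 and 57 fell with a median of -1.73. Many models this low in control could pass the filter only through the GATA4-GR+Dkk-1 libraries and had to be higher there, so their counts are given as a description.

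The strongest rises were in models with low levels in control explants, which the filter and the choice by ratio both favour. The 116 models with a log2 rise of at least 5 had a median of 0.0693 CPM at 2.5 h, 0.128 CPM at 5 h and 0.22 CPM at 7.5 h in control. With GATA4-GR+Dkk-1 their medians were 3.12, 8.69 and 14.4 CPM at the same hours. All 3 treated libraries lay above all 3 control libraries in each of the 116 (8.29% of all tested), which their choice by size, and for the scarcest models the filter, nearly fixes. Their mean level with GATA4-GR+Dkk-1 spanned 0.746 to 15574 CPM with a median of 9.44, and only 6 of them exceeded 100 CPM. Computed with a prior count of 2, their median log2 differences from control were 3.86, 5.00 and 5.49 in order of hour. Such a prior shrinks differences most where counts are lowest. Control was scarce throughout in these models, and their treated median was lowest at the first hour. These values therefore cannot show whether the difference widened with the hour, which was not tested for this set.

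At the far end were 45 models that rose from at most 3 counts over the 3 control libraries together, 11 of which had none. Such models passed the low-count filter only through the treated side and had to differ, so their number is a description. Their levels with GATA4-GR+Dkk-1 had medians of 1.06 CPM at 2.5 h, 2.07 CPM at 5 h and 3.32 CPM at 7.5 h. Of the 45, 33 were highest at 7.5 h, 36 reached a mean of 1 CPM and 6 a mean of 5 CPM. To pass the filter each of them had to reach its cutoff in all 3 treated libraries. Their presence at 2.5 h was therefore fixed in advance, and models that came on only later could not be among them. At 24 h, in libraries that took no part in these calls, the same models had a median of 0.199 CPM in control (lowest 0, highest 48.2) and 5.05 CPM with GATA4-GR+Dkk-1 (lowest 0.0742, highest 571). At that hour 38 of the 45 (84.4%) were at least 2-fold higher and 1 was at least 2-fold lower than control, where 13.2% and 14.4% of all models tested were. With 0 CPM in control at 24 h, 16 of the 45 could not be lower there, so the share that was lower is a description only. Their mean early level with GATA4-GR alone ranged from 0.543 to 15.2 CPM (median 2.8), and with Nodal5 from 0 to 2.56 CPM (median 0.0459).

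Xelaev16000107m.g had the highest mean level of these 45 models. It had 1, 0 and 0 counts in control at 2.5, 5 and 7.5 h and 115, 244 and 184 counts with GATA4-GR+Dkk-1. These correspond to 6.77, 11.2 and 13.9 CPM with GATA4-GR+Dkk-1 and to 0.0693, 0 and 0 CPM in control. The groups did not overlap, which the filter fixed in advance, and the treated level rose at each later hour. The ratio of its scaled counts was 578, with a 95% exact binomial interval from 103 to 22890 that covers counting error only. No p is given for it against control, since it passed the filter only through the treated libraries. At 24 h it stood at 73 CPM with GATA4-GR+Dkk-1 and 0.398 CPM in control.

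A pair of models accounted for much of the added reads. Xelaev16022472m.g had 13.1, 1.37 and 7.93 CPM in control at 2.5, 5 and 7.5 h and 14225, 14008 and 16275 CPM with GATA4-GR+Dkk-1. Its log2 fold change was 11.1 (standard error 0.44, edgeR quasi-likelihood adjusted p = 2.01e-06), the largest among models with at least 10 counts in every control library. The treated level was flat over the early hours while the control level varied, so the log2 difference was 10.1 at 2.5 h and 13.2 at 5 h. Over the early hours it was high only in the libraries with Dkk-1. With GATA4-GR alone it had 17.4, 3.26 and 30.8 CPM, and with Nodal5 41.8, 27 and 17.5 CPM, at the same hours. The direct test of GATA4-GR+Dkk-1 against GATA4-GR gave a log2 difference of 9.88 (standard error 0.345, adjusted p = 1.93e-07). By 24 h its level was 5954 CPM with GATA4-GR+Dkk-1, 10.4 CPM in control, 15.2 CPM with GATA4-GR and 769 CPM with Nodal5.

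**Figure D2:**
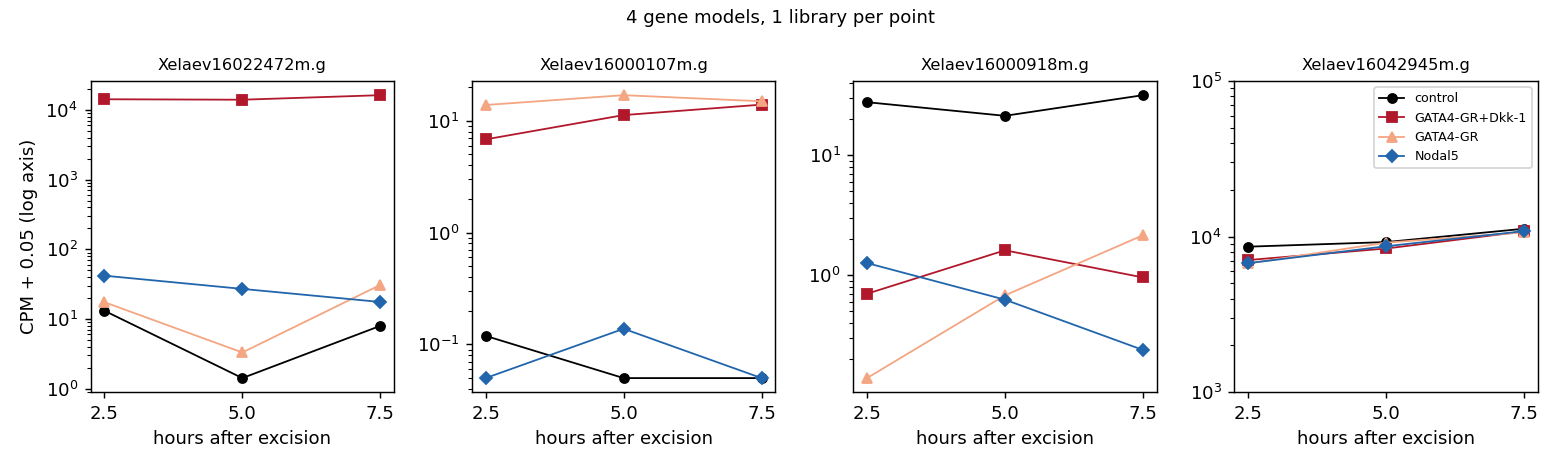
Level of 4 gene models in CPM plus 0.05 on a log axis (vertical, a different range in each panel) at 2.5, 5 and 7.5 h (horizontal), 1 library per point, in control, GATA4-GR+Dkk-1, GATA4-GR and Nodal5. Xelaev16022472m.g is high with GATA4-GR+Dkk-1 alone, Xelaev16000107m.g with both GATA4-GR treatments, Xelaev16000918m.g is low with every treatment, and the 4 treatments lie close together for Xelaev16042945m.g.

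The other member of the pair, the highest of all models that rose, was chosen after its values were seen and is not given by identifier. It had 15.4, 7.78 and 16.9 CPM in control and 15887, 14594 and 16243 CPM with GATA4-GR+Dkk-1 (log2 fold change 10.2, standard error 0.187, edgeR quasi-likelihood adjusted p = 5.62e-08). It was also high with GATA4-GR alone, at 13253, 14579 and 12077 CPM, and not with Nodal5, at 26.6, 22.2 and 34.6 CPM. Over these hours both models were high only in explants given an mRNA that the other explants lacked, the first with Dkk-1 and the second with GATA4-GR. Whether their reads came from the injected mRNAs or from the embryo's own genes was not tested. At 24 h the second model stood at 4644 CPM with GATA4-GR+Dkk-1 and 33.4 CPM in control.

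These 2 models set much of the shift in library content. Together they held 0.00288, 0.000918 and 0.00248% of the control counts at 2.5, 5 and 7.5 h and 3.01, 2.85 and 3.17% of the GATA4-GR+Dkk-1 counts. The other models that rose went from 6.06, 5.52 and 5.31% of the counts in control to 7.57, 7.74 and 8.02% with GATA4-GR+Dkk-1. The models that fell held 14.8, 15.8 and 17.4% in control and 10.6, 11.2 and 11.5% with GATA4-GR+Dkk-1. The share lost by the models that fell was larger than the share gained by the other models that rose at each hour. This leaves out the 2 highest models. With them, the models that rose went from 6.07, 5.52 and 5.32% in control to 10.6, 10.6 and 11.2% with GATA4-GR+Dkk-1. Shares of a library have a fixed total, so the reads of the 2 models lower every other share. In bulk RNA, fewer cells that hold a transcript and less of it per cell cannot be told apart.

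**Figure D3:**
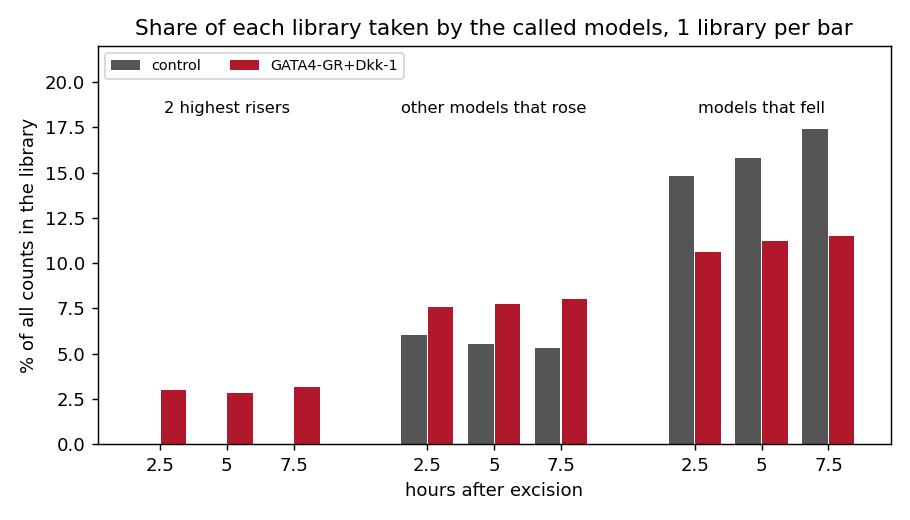
Percent of all counts in a library (vertical axis) taken by the 2 highest models that rose, by the other models that rose and by the models that fell, at 2.5, 5 and 7.5 h (horizontal axis), 1 library per bar. Control bars for the 2 highest models are too small to see, and the models that fell go from 17.4% in control to 11.5% with GATA4-GR+Dkk-1 at 7.5 h.

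The strongest falls left low but detectable levels. The 85 models with a log2 fall of 3 or more had medians of 3.12, 3.29 and 4.19 CPM in control at 2.5, 5 and 7.5 h and of 0.235, 0.276 and 0.377 CPM with GATA4-GR+Dkk-1. In 84 of them all treated libraries lay below all control libraries (10.2% of all tested), which their choice by size nearly fixes. Only 8 models fell to at most 3 counts over the 3 GATA4-GR+Dkk-1 libraries, from mean control levels between 0.753 and 1.93 CPM, and none of the 8 lacked counts altogether. Their low number is bounded by the filter, which such models could pass only through the control side.

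Xelaev16000918m.g showed the largest fall among models with at least 10 counts in every treated library. Its levels were 27.7, 21.3 and 31.7 CPM in control and 0.648, 1.56 and 0.905 CPM with GATA4-GR+Dkk-1 at 2.5, 5 and 7.5 h. The lowest control library was far above the highest treated one. The fitted log2 fold change was -4.58 (standard error 0.254, edgeR quasi-likelihood adjusted p = 1.09e-05), and the fall was already -5.20 at 2.5 h, followed by -3.68 at 5 h and -4.97 at 7.5 h. The other treatments had low levels too, with 0.088, 0.627 and 2.1 CPM after GATA4-GR and 1.21, 0.573 and 0.187 CPM after Nodal5. At 24 h the level was 173 CPM in control and 7.5 CPM with GATA4-GR+Dkk-1.

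Xelaev16042945m.g lost the most CPM of all models called as fallen. It had 8619, 9228 and 11242 CPM in control and 7073, 8390 and 10804 CPM with GATA4-GR+Dkk-1. The level was lower at each hour, but the groups overlapped because both rose with time. Its log2 fold change was -0.16 (standard error 0.0466, edgeR quasi-likelihood adjusted p = 0.0581). This call was lost with DESeq2 (adjusted p = 0.114), with all 12 early libraries in the fit (0.325), without the hour term (0.902), and without the 2.5 h pair (0.258) or the 5 h pair (0.197). Xelaev16022472m.g and Xelaev16000918m.g kept their calls against control under all of the alternatives run.

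At single hours, with 1 library on each side and no test, larger shares of the models passed 2-fold at 7.5 h than at 2.5 h. Over all models tested, 3.96% were at least 2-fold higher and 5.12% at least 2-fold lower at 2.5 h. At 5 h the shares were 5.1% and 4.81%, and at 7.5 h 5% and 6.45%. Of the models that rose, 710 (35.4%) were at least 2-fold higher at 2.5 h, 904 (45.1%) at 5 h and 913 (45.6%) at 7.5 h. Of the models that fell, 907 (35.9%), 978 (38.8%) and 1197 (47.4%) were at least 2-fold lower at these hours. In both directions most of these numbers were already reached at 2.5 h, which a test for an effect shared by the hours favours. What was added later came mostly between 2.5 and 5 h for the rises and between 5 and 7.5 h for the falls.

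The medians of these same models moved at the same hours and are no separate support. The models that rose had a median log2 difference of 0.55 at 2.5 h, 0.87 at 5 h and 0.86 at 7.5 h, while the models that fell had -0.69, -0.75 and -0.93. Over all models tested the median was 0.00408, 0.00136 and 0.032. The level behind the rises was a median of 4.36, 4.92 and 5.45 CPM in control and 9.59, 14.2 and 16.7 CPM with GATA4-GR+Dkk-1. In the models that fell, control went up from 14.9 to 16 and 17.9 CPM while GATA4-GR+Dkk-1 stayed at 7.95, 8.14 and 7.69 CPM. Between 2.5 and 7.5 h the control median thus moved more than the treated median. These are separate medians of relative levels, and the widening was not split model by model. With all 16 libraries scaled together, the median log2 difference of these models with GATA4-GR was -0.59, -0.67 and -0.63 at the same hours.

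**Figure D4:**
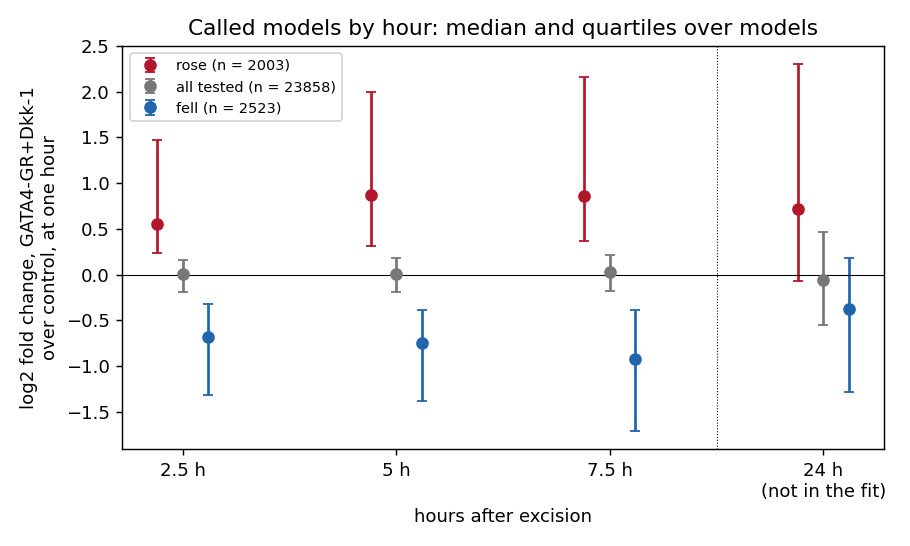
Log2 fold change of GATA4-GR+Dkk-1 over control at single hours (vertical axis) over the 3 early hours and at 24 h (horizontal axis), as the median (point) and quartiles (bars) over the models that rose, all models tested and the models that fell. The median of the models that rose is 0.55, 0.87 and 0.86 at the early hours and 0.72 at 24 h, in libraries outside the fit, and that of the models that fell is -0.37 at 24 h.

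The called models were sorted by the hours at which they passed 2-fold, and the largest class in both directions passed it at no hour, with 926 models that rose and 1128 that fell. Of the models that rose, 583 (29.1%) were at least 2-fold higher at all 3 hours (2.44% of all tested), 204 (10.2%) at 5 and 7.5 h but not at 2.5 h, and 94 (4.69%) at 7.5 h only. Only 47 (2.35%) passed 2-fold at 2.5 h alone and 48 (2.4%) at 2.5 and 5 h alone. Of the models that fell, 630 (25%) were at least 2-fold lower at all 3 hours (2.64% of all tested), 228 (9.04%) from 5 h on and 208 (8.24%) at 7.5 h only, against 78 (3.09%) at 2.5 h alone. Over all models tested, 248, 325 and 327 were at least 2-fold higher at 2.5, 5 or 7.5 h alone, more together than the 583 higher at all 3 hours. The test asks for an effect shared by the hours, so it favours changes seen at all hours, and brief responses can be missing from these lists.

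The groups differed in level as well as in timing, which their choice partly fixes. Small changes can be called only where counts are high, and large ratios favour models scarce in control. The 583 models that rose past 2-fold at all 3 early hours were scarce in control, with medians of 0.485, 0.684 and 0.826 CPM at 2.5, 5 and 7.5 h, and reached 3.36, 7.36 and 10.6 CPM with GATA4-GR+Dkk-1. The 204 models that passed 2-fold from 5 h on had 1.25, 1.15 and 1.27 CPM in control and 1.56, 4.05 and 5.58 CPM with GATA4-GR+Dkk-1. Their median log2 difference was 0.54 at 2.5 h, where the class was held under 2-fold by its definition, and 1.54 and 1.69 at the later hours. The 630 models that fell past 2-fold at all 3 early hours had 5.82, 6.56 and 7.6 CPM in control, and with GATA4-GR+Dkk-1 they had 1.56 CPM at 5 h and 1.36 CPM at 7.5 h. The 926 and 1128 models that passed 2-fold at no hour had control medians of 34.3 and 38.2 CPM at 2.5 h.

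**Figure D5:**
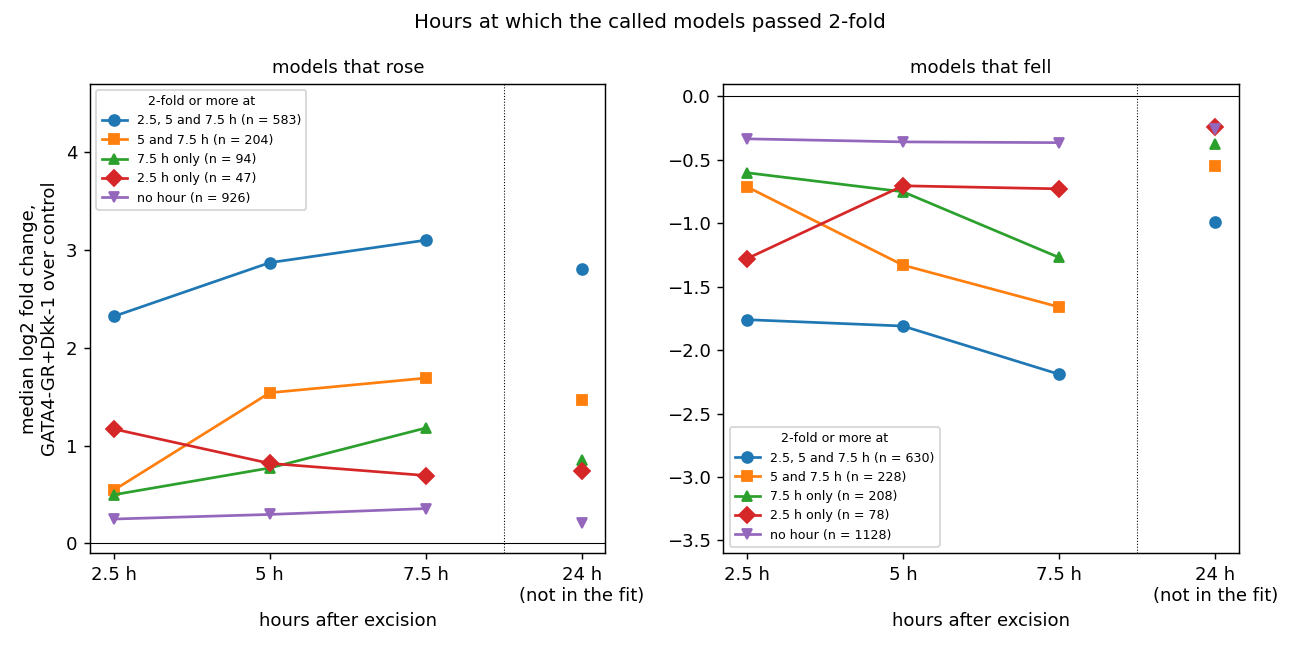
Median log2 fold change of GATA4-GR+Dkk-1 over control (vertical axis) for the early hours and 24 h (horizontal axis) for the models that rose (left) and fell (right), split by the hours at which they passed 2-fold. The early points follow from the way the models were split, and the 24 h points, from libraries outside the fit, lie at 2.80 for the 583 models that rose past 2-fold at all 3 early hours and at -0.99 for the 630 models that fell past 2-fold at all 3 early hours.

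A separate test asked whether the effect of GATA4-GR+Dkk-1 changed in a straight line with the hour. It called 440 models (1.84% of all tested), of which 182 had an effect that became more positive and 258 one that became more negative. The 182 had median log2 differences of 0.19 at 2.5 h, 1.44 at 5 h and 2.18 at 7.5 h, with control at 5.82, 5.41 and 5.21 CPM and GATA4-GR+Dkk-1 at 10.3, 20.9 and 35 CPM. The 258 had median log2 differences of -0.41, -1.02 and -1.69, with control at 36.3, 44.9 and 52 CPM and GATA4-GR+Dkk-1 at 27.2, 22.1 and 17.2 CPM. In the first set control was nearly flat while the treated level climbed, and in the second control climbed while the treated level declined. Among the 182, 58 were lower than control at 2.5 h and higher at 7.5 h, and among the 258, 63 were higher at first and lower later. Both sets were chosen by the change of their effect over these same hours, so these values describe them and are no test. Such crossings were not counted over all models tested. This fit leaves 1 residual degree of freedom, and the number of calls fell to 123 of 16919 models with DESeq2 and to 29 with all 12 early libraries.

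Each hour was also left out in turn, and models called from the other 2 hours were looked up in the pair of libraries that had taken no part. Of 2002 models called as risen without the 2.5 h pair, 1798 (89.8%) were higher than control at 2.5 h, where 50.9% of all models tested were. Of 2489 called as fallen, 2288 (91.9%) were lower, against 49.1% of all. At 5 h the shares were 97.2% of 863 risen models (all models 50.2%) and 97.7% of 1307 fallen models (all models 49.8%). At 7.5 h they were 94.6% of 1631 (all models 54.8%) and 94.3% of 2289 (all models 45.2%). The share that kept its direction was lowest at 2.5 h in both directions. The sets differed in number and in size of change, however. The median absolute log2 of the called models was 1.25 without the 2.5 h pair, 1.5 without the 5 h pair and 0.959 without the 7.5 h pair. These shares therefore do not rank the hours.

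The libraries at 24 h entered none of the early fits. At that hour 13.2% of all models tested were at least 2-fold higher with GATA4-GR+Dkk-1 than in control and 14.4% at least 2-fold lower. Among the models that had risen early, 859 (42.9%) were at least 2-fold higher and 142 (7.09%) at least 2-fold lower, with a median log2 difference of 0.72. Among the models that had fallen early, 768 (30.4%) were at least 2-fold lower and 236 (9.35%) at least 2-fold higher, with a median of -0.37. The median over all models was -0.06. With 1 library on each side, the difference between these shares was not tested.

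The share past 2-fold at 24 h is given by early size as a description, because models with an early log2 under 1 had not reached 2-fold to begin with. Of the 510 models with an early log2 rise of 2 or more, 405 (79.4%) were at least 2-fold higher at 24 h, with a median log2 of 3.20, against 242 of 1087 (22.3%) with a rise under 1. Of the 361 models with a log2 fall of 2 or more, 200 (55.4%) were at least 2-fold lower at 24 h, with a median of -1.26, against 288 of 1401 (20.6%) with a fall under 1. By timing, 75.6% of the 583 models that rose past 2-fold at all 3 early hours, 62.3% of the 204 that passed 2-fold from 5 h on and 31.9% of the 47 that did so at 2.5 h alone were at least 2-fold higher at 24 h. Among falls the shares at least 2-fold lower were 49.8% of 630, 38.6% of 228 and 28.2% of 78. In the 630 models the control median went from 7.6 CPM at 7.5 h to 14.6 CPM at 24 h, and that with GATA4-GR+Dkk-1 from 1.36 to 7.57 CPM.

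GATA4-GR+Dkk-1 was set directly against GATA4-GR alone to ask what Dkk-1 added, without the control libraries. The test called 3854 of 23602 models (16.3% of all tested), 2318 higher and 1536 lower with Dkk-1. These differences were small, with a median absolute log2 of 0.32 among the called models and only 91 of them at 2-fold or more. The count was unstable, at 1666 of 13535 models with DESeq2 and at 1 when all 12 early libraries shared one estimate of the spread. The model left there was Xelaev16022472m.g (log2 difference 9.98, standard error 0.78, adjusted p = 0.00408). For Xelaev16000107m.g the level was lower with Dkk-1 (log2 difference -0.54, standard error 0.147, edgeR quasi-likelihood adjusted p = 0.0402 in the 6 libraries), at 13.8, 16.9 and 14.9 CPM with GATA4-GR alone.

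Set directly against Nodal5, GATA4-GR+Dkk-1 differed in 1640 of 23492 models (6.98% of all tested), 904 higher and 736 lower. The called differences had a median absolute log2 of 2.19, with 1382 of them at 2-fold or more. Whether this count or the one against GATA4-GR was the larger depended on the setting, since it was the smaller here but the larger with all 12 early libraries. DESeq2 called 1829 of 23492 models against Nodal5 and 1666 of 13535 against GATA4-GR. These 2 counts rest on different numbers of models tested, so they do not give an order. The spread between hours was also larger, with a biological coefficient of variation of 0.176 against 0.0611 in the comparison with GATA4-GR and 0.0775 in the comparison with control. The count was 3518 with all 12 early libraries, 3501 without the 2.5 h pair and 463 without the 5 h pair. The balance of higher and lower models was no more stable, at 1738 and 1763 without the 2.5 h pair and 1049 and 1317 without the 7.5 h pair.

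The models called against control had these levels of change in the other treatments, which were set against the same control libraries and so share their deviations. For the 2003 models that rose, the median log2 difference at 2.5, 5 and 7.5 h was 0.60, 0.90 and 0.85 with GATA4-GR+Dkk-1, 0.54, 0.91 and 0.93 with GATA4-GR and 0.22, 0.19 and 0.09 with Nodal5, when all 16 libraries were scaled together. For the 2523 models that fell it was -0.63, -0.71 and -0.92 with GATA4-GR+Dkk-1, -0.59, -0.67 and -0.63 with GATA4-GR and -0.47, -0.35 and -0.22 with Nodal5. In the 116 models with a log2 rise of at least 5, the medians were 4.12, 5.36 and 5.57 with GATA4-GR and 0.54, 0.42 and 0.51 with Nodal5. In the 85 models with a log2 fall of 3 or more, they were -2.77, -3.19 and -2.45 with GATA4-GR and -1.72, -1.41 and -1.37 with Nodal5. The models were chosen on the GATA4-GR+Dkk-1 libraries, which favours that treatment in such medians.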

How the data were processed

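RNA-seq of polyA RNA was analysed in the GATA4-GR+Dkk-1 and control libraries at 2.5, 5 and 7.5 h (6 of 16), with the other 10 used only where named. Per the methods, the authors aligned reads to the JGI X. laevis gene models (version 7.2) with Bowtie and estimated counts per model with RSEM. The values they deposited are these expected counts, not normalized. They need not be whole, since reads matching several models are divided between them. The authors' own calls came from DESeq and were not used.

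Counts were rounded, models with low counts were left out with filterByExpr in edgeR 4.0.16 (R 4.3.3, minimum count 10), which kept 23858 of 54142 models, and libraries were scaled by TMM. The treatment effect came from a quasi-likelihood test in edgeR with the hour as a block, Benjamini-Hochberg adjustment over all models tested and a threshold of 0.1. The fit has 2 residual degrees of freedom and a biological coefficient of variation of 0.0775. Each standard error given is the value implied by the fitted log2 fold change and the F statistic of its quasi-likelihood test. GATA4-GR+Dkk-1 was tested in the same way against GATA4-GR and Nodal5. The hours pair the libraries through their time label. No separate cultures are documented, so p-values measure the spread of an effect between hours. Single-hour log2 differences used CPM with a prior count of 2 and no test. CPM of GATA4-GR, Nodal5 and 24 h libraries come from TMM over all 16 libraries, expressed relative to the 6. Total counts of 13593005 to 23310242 limit counting error only.

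On simulated counts for the same 6 libraries and 23858 models, the shared test and the slope test recovered nearly all of the changed models, and in both a larger share of the calls was false than the threshold states. The changed models had ample control counts and set changes with a log2 size of 1 or 2. Recovery of smaller changes, or of models scarce in control, was therefore not tested.

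DESeq2 1.42.0, limma-voom (limma 3.58.1), other scalings, filters, thresholds and library sets, and leaving out each hour were alternatives. For the comparisons with GATA4-GR and Nodal5 and for the slope, DESeq2 or median-of-ratios size factors were added after seeing the data where they had not been listed. The models, lists and rules were chosen with earlier results of these data known. The named models, all called and moved one way at all 3 hours, were the largest rise with at least 10 counts in every control library, the highest mean CPM among models with at most 3 control counts, the largest fall with at least 10 counts in every treated library, and the largest loss of CPM. Reads of injected mRNA could be counted in a matching model.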

Additional observations from a re-analysis of the deposited data

Results flagged for a closer look

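The number of models whose GATA4-GR+Dkk-1 effect changed between 2.5 and 7.5 h was singled out because the test of the change itself passed the threshold in 440 of 23858 models, with an effect that became more positive in 182 and more negative in 258. At an unadjusted p under 0.05 there were 1669 models (7%). That share was 5.09% with all 12 early libraries and 2.76% with DESeq2, close to or under what this threshold alone would pass. DESeq2 called 123 of 16919 models, and 29 remained when all 12 early libraries shared one estimate of the spread.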

How the results depend on the processing

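The count of 4526 models against control stayed within 1.5 times its value under median-of-ratios size factors, library totals, limma-voom, no filter, a minimum count of 50, a threshold of 0.05, all 12 early libraries and robust moderation, from 3144 to 6057. It was 2566 with DESeq2 and 1636 without the replicate block, and leaving out 1 hour gave 2170 to 4491, the lowest without the 5 h pair. The count of slope calls (440) was 123 of 16919 models tested with DESeq2, 29 with all 12 libraries and 486 with median-of-ratios size factors. Against GATA4-GR the count (3854) was 1 with all 12 libraries, 1666 of 13535 models tested with DESeq2 and 3907 with median-of-ratios size factors. With 1 hour left out it was 2254 to 2957, so that 2559 were called without the 5 h pair and 2254 without the 7.5 h pair. Against Nodal5 the count (1640) was 3518 with all 12 libraries, 1829 with DESeq2 and 463 to 3501 with 1 hour left out. The cause of these shifts was not tested. Medians of the called models at single hours kept their direction with prior counts of 0.5 and 8. With another scaling, 858 early risen models were at least 2-fold higher at 24 h and 770 early fallen models at least 2-fold lower. The fold changes of the named models against control kept their direction under the alternatives run. The median over all models tested against control was small and changed sign, from 0.0176 to -0.000334 with library totals only. The balance of calls changed as well. Against Nodal5 it was 904 higher and 736 lower, but 1738 and 1763 without the 2.5 h pair and 1049 and 1317 without the 7.5 h pair. The slope calls went from 182 positive and 258 negative to 17 and 12 with all 12 libraries. The spread between explant batches was not measured, depth limits only the models at a few counts, and simulated data gave more false calls than the threshold states.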
